A study of Ovis aries with 24 samples.

Results

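The hind-limb muscles coded SM and ST were compared in wild-type sheep on 4 of the 24 arrays of the series, 2 for each muscle. Probe sets entered the comparison when their signal was 200 or more on both arrays of at least 1 of the muscles, which kept 5228 of 24128 probe sets. Of these, 4486 passed in both muscles, 379 in SM alone and 363 in ST alone. At the limit, the probe set just inside (deciding signal 200) had a log2 difference of 0.25, and the one just outside (199.9) had -2.4. The lambs had genotype NN, which carries no callipyge allele, and were 11 to 12 weeks old (T12) in a cross-bred Dorset, Suffolk and Rambouillet flock. The series profiled callipyge sheep, whose hypertrophied muscles also change fibre type, and wild-type muscles that differ in fibre make-up were added to find genes that follow fibre type. Longissimus dorsi (LD), a back muscle, and supraspinatus (SS), a shoulder muscle, of NN lambs at T12 served for comparison, again with 2 arrays each. ST is the semitendinosus. The sample labels name SM as semitendinosus too, while the labels' protocol and the series' design name it semimembranosus, so the code SM is kept. Sample labels of this age also carry the word birth, and the age code was used.

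The pair of arrays of each muscle are technical replicates, so SM and ST are 1 sample each. The labels' protocol describes LD from 8 male lambs and does not say how many animals stand behind an SM or ST array. A difference between SM and ST therefore cannot be told apart from one between the animals or pools that were sampled. The array carries bovine probes, and each gene was set only against itself between muscles.

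Skeletal muscle mixes slow, oxidative fibres with fast, more glycolytic ones. The fibre kinds use different genes for the same contractile parts, the myosin heavy and light chains and the troponins, and for the calcium pump. Calcium released at each contraction also acts as a signal. It activates the phosphatase calcineurin, which favours the slow-fibre programme and switches on RCAN1, a feedback regulator of calcineurin. Muscles also keep a record of their position in the body in homeobox transcription factors such as the HOX and IRX families.

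The median signal was 59.0 and 56.55 on the SM arrays and 54.2 and 48.9 on the ST arrays, within the range of 47.4 to 59.7 over all 24. The 3′ to 5′ log2 signal ratio of GAPDH, a sign of RNA integrity, was 0.222 and 0.113 in SM and 0.199 and 0.202 in ST. All 5 skeletal muscle fibre markers on the array (ACTA1, CKM, MB, DES and MYH7) had a signal of 11767.1 or more on every SM and ST array.

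SM and ST differed little. Over the 5228 probe sets the median absolute log2 difference between the muscles was 0.199, and 87.9% lay within 0.5. Between the arrays of 1 muscle the median was 0.223 in SM and 0.236 in ST, against 0.233 to 0.288 for an SM array set against an ST array. A 2-fold difference with arrays that did not overlap was found for 45 probe sets (0.861%), 19 of them higher in SM (0.363%) and 26 lower (0.497%). Of the 19, 9 passed the signal rule through SM alone, and of the 26, 15 passed through ST alone, so these had to differ to some extent. By the same rule SM differed from LD in 29 probe sets (0.558%) and ST from LD in 64 (1.23%), while SS differed from SM in 241 (4.48%) and from ST in 252 (4.71%). These comparisons share arrays with each other. The count of 45 rests on having both arrays. With 1 array left out it was 134 or 111 without SM replicate 1 or 2, and 99 or 108 without ST replicate 1 or 2, of which 36, 39, 40 and 35 probe sets were among the 45.

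Across group values, limma with an intensity trend called 1 of the 5228 probe sets (0.0191%) at a Benjamini-Hochberg adjusted p under 0.05, RCAN1, which was also the 1 call among all 15654 tested (0.00639%). That fit takes its spread from 3 LD genotypes, CC, NC and NN, at each age and assumes that SM and ST vary like them. It found 1046 of 15654 probe sets tested (6.68%) at an unadjusted p under 0.05. When the arrays entered limma as separate values, 77 of the 5228 passed (1.47%), 31 higher in SM (0.593%) and 46 lower (0.88%). Those p-values cover array error only and say nothing of the spread between animals. Of the 45 probe sets with a 2-fold difference, 26 were among the 77.

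**Figure D1:**
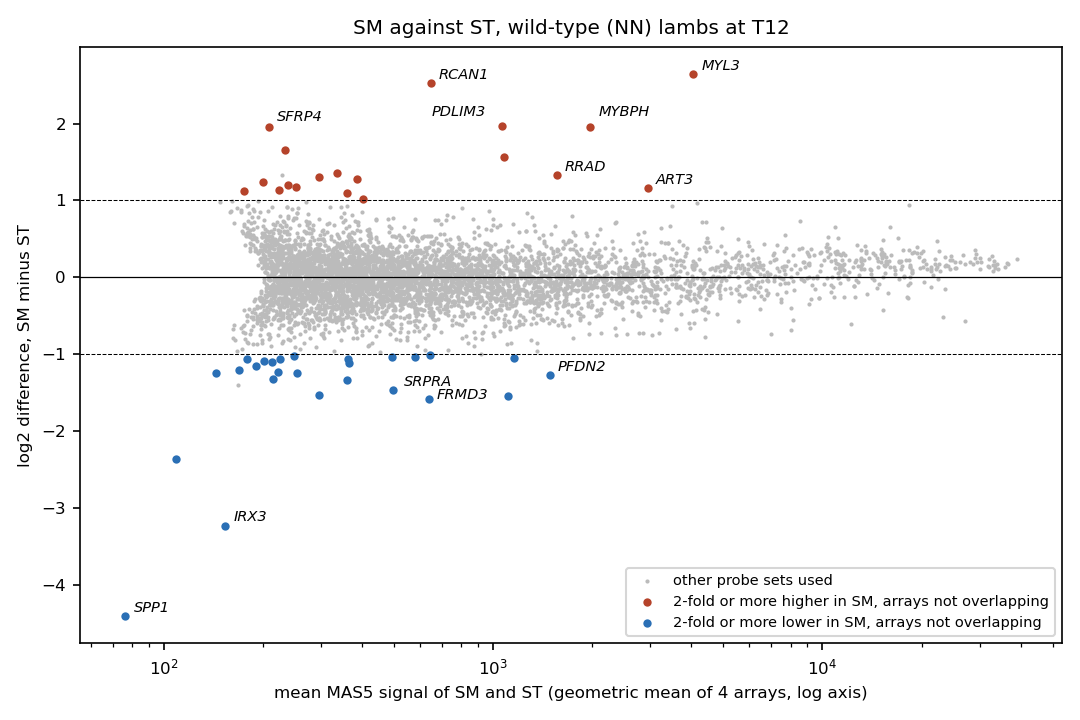
Log2 difference SM minus ST of each of the 5228 probe sets used (vertical axis) against the geometric mean signal of the 4 arrays (horizontal log axis), with dashed lines at a 2-fold difference. Red points are the 19 probe sets higher in SM and blue points the 26 lower in SM whose arrays did not overlap. MYL3 and RCAN1 stand highest, and SPP1 and IRX3 lowest.

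RCAN1 was higher in SM than in ST. Its signal was 1951.9 and 1233.1 on the SM arrays, against 268.0 and 269.8 on the ST arrays. The SM arrays lay far above the ST arrays, and the ST arrays were nearly equal. The log2 difference was 2.53 ± 0.24 (SE), 5.77-fold, with a limma adjusted p of 0.00829. Without the intensity trend in limma the adjusted p was 0.201, so the call depends on that setting. RCAN1 was 963.7 and 1452.6 in LD and 2460.3 and 1905.1 in SS, so ST alone was low among the 4 muscles.

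MYL3, the essential myosin light chain of slow fibres and of heart ventricle, showed the largest positive difference. Its signal was 9478.2 and 10801.2 in SM, against 1648.3 and 1588.6 in ST. The arrays did not overlap, and the difference of 2.64 ± 0.52 (SE) on the log2 scale, 6.25-fold, had a limma adjusted p of 0.205 over group values and 1.72e-09 over single arrays. LD (5562.7 and 5042.5) and SS (5615.9 and 6748.8) of NN lambs lay between SM and ST on every array. MYL3 also varied within LD at T12, where its mean signal was 2370 in CC, 3293 in NC and 5296 in NN.

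Among the other genes with large differences, PDLIM3 and MYBPH encode sarcomere proteins. PDLIM3, a Z-disc protein that binds alpha-actinin, had 1987.5 and 2234.6 in SM and 559.5 and 521.0 in ST, a log2 difference of 1.96 ± 0.46 (SE, limma adjusted p = 0.355). Its dimmer probe set differed by 0.38, also with SM above ST. In that probe set SS was lowest, with 262.5 and 230.1, against 275.4 and 327.5 in ST. MYBPH, a myosin-binding protein of the thick filament, had 3589.0 and 4198.0 in SM and 760.8 and 1310.9 in ST, a log2 difference of 1.96 ± 0.53 (SE, limma adjusted p = 0.482). Its second probe set gave 1.66. In SS the brighter MYBPH probe set gave 60.6 and 55.7, far below both muscles, and in LD 3830.6 and 2267.2. MYOZ2, a slow-fibre Z-disc protein that binds calcineurin, had 3 probe sets with log2 differences of 0.66, 0.73 and 0.97, all higher in SM. Muscle fibre genes did not all share this direction, since ACTN3 and the calcium pump ATP2A1, given below, were slightly lower in SM (log2 -0.17 and -0.13).

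Further genes higher in SM follow. RRAD, a small GTPase that inhibits calcium channels, had 2367.8 and 2578.6 in SM and 883.6 and 1095.9 in ST, a log2 difference of 1.33 ± 0.26 (SE, limma adjusted p = 0.204). SFRP4, a secreted Wnt antagonist, had 360.3 and 467.1 in SM and 97.2 and 115.6 in ST, so it passed the signal rule through SM alone. The log2 difference was 1.95. SM was above every array of LD and SS for SFRP4, as it was for DDO, D-aspartate oxidase, which had 594.9 and 612.5 in SM and 226.6 and 271.7 in ST. ART3, of the ADP-ribosyltransferase family, had 4585.7 and 4248.5 in SM and 1983.7 and 1957.3 in ST, and its dimmer probe set, below the signal rule, differed by 0.21 with overlapping arrays. CD36, which carries long-chain fatty acids into muscle fibres and vessel cells, had 4397.7 and 5326.7 in SM and 2619.5 and 2455.6 in ST, a log2 difference of 0.93 that stays under 2-fold.

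The remaining genes among the 15 largest positive differences were LOC782061, PPIA (cyclophilin A, a gene with many near-identical copies, so its probes may read more than 1), NMRAL1, SPTLC2 (a subunit of serine palmitoyltransferase), CCL14 (a chemokine) and GTF2H2 (a subunit of the transcription factor TFIIH). Their log2 differences ran between 0.92 and 1.14, and all but PPIA passed the signal rule through SM alone. None of these 6 passed limma over single arrays.

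**Figure D2:**
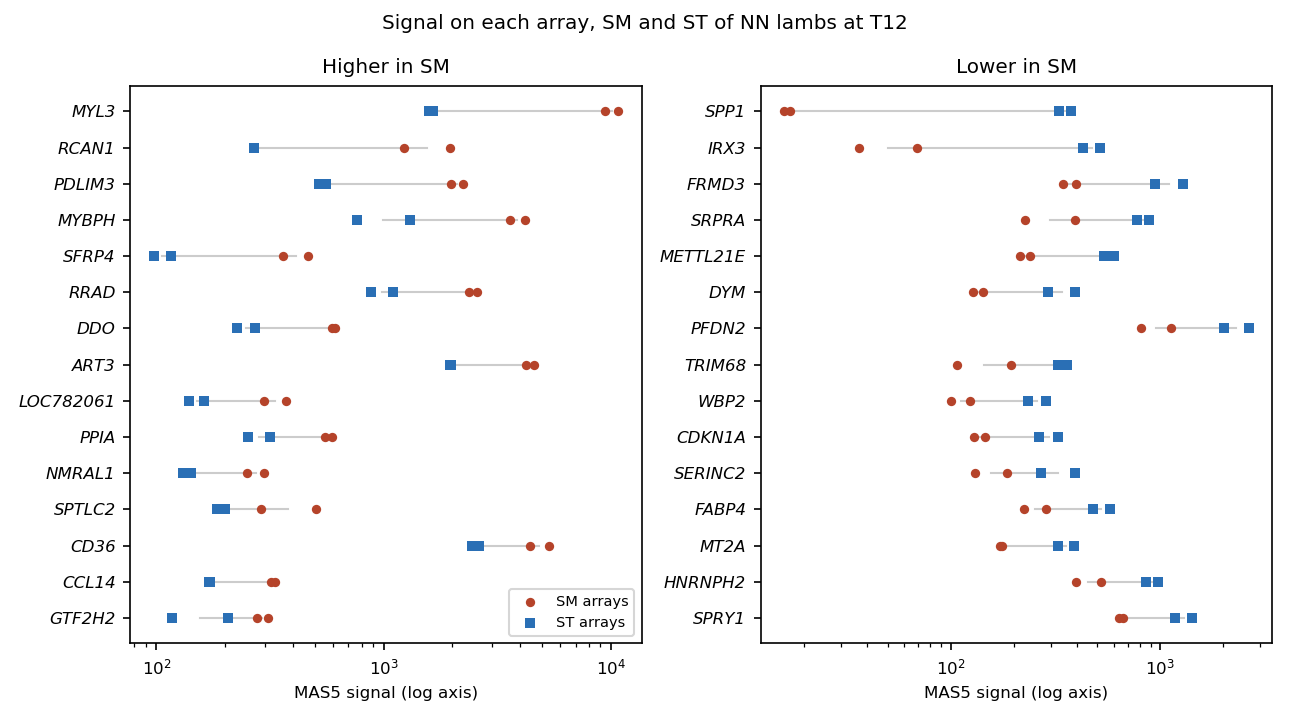
Signal on each array (horizontal log axis) for the 15 genes with the largest positive (left) and the 15 with the largest negative (right) log2 difference, 2 SM arrays as red circles and 2 ST arrays as blue squares, each pair of means joined by a grey line. Arrays of the muscles do not overlap for any gene shown, as the rule for choosing them requires, and the gap is widest for SPP1.

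SPP1 (osteopontin, a secreted phosphoprotein of bone and of regenerating muscle) showed the largest negative difference. Its signal was 16 and 17.1 in SM, against 376.9 and 329.1 in ST, and LD (36.5 and 28.4) and SS (38.7 and 49.4) were low as well. The log2 difference was -4.41 ± 1.04 (SE, limma adjusted p = 0.355), and with 16 added to every signal before the log it was -3.5. The SM signals lay below the median of their arrays, so the size of the fold is uncertain. ST was above every array of the other 3 muscles of NN lambs at T12, and SPP1 passed the signal rule through ST alone. Over the LD groups at T12, mean SPP1 signal ran from 32.2 in NN to 183.5 in NC. At birth (T0) it reached 258.5 in LD of NN, so SPP1 also varied within 1 muscle.

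IRX3, a homeobox transcription factor, also passed the signal rule through ST alone. It had 69.2 and 36.4 in SM, against 429.8 and 518.6 in ST, a log2 difference of -3.23 ± 1.01 (SE, limma adjusted p = 0.543). In LD (70.1 and 54.0) and SS (87.8 and 45.1) it lay in the range of SM or close above it. The entry through ST alone means that a high ST level was part of its selection. In LD at birth (T0), mean IRX3 signal ran from 49.9 in NN to 403.3 in CC, so a high level was not limited to ST in the series.

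FRMD3, of the FERM-domain family, had 343.1 and 394.4 in SM and 946.1 and 1289.9 in ST, a log2 difference of -1.59. METTL21E, a methyltransferase gene of muscle studied in mouse, had 239.8 and 214.1 in SM and 602.4 and 540.7 in ST, a log2 difference of -1.33, and its second probe set gave -0.94. For METTL21E the SS arrays (657.7 and 718.3) were above ST and the LD arrays (168.1 and 131.4) below SM. PFDN2, a subunit of the protein-folding complex prefoldin, had 1121.7 and 813.2 in SM and 2020.4 and 2646.4 in ST. Its log2 difference of -1.28 ± 0.19 (SE) had a limma adjusted p of 0.0833, the lowest among the 30 genes with the largest differences after RCAN1.

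SRPRA, the alpha subunit of the signal recognition particle receptor, had 226.1 and 393.2 in SM and 778.3 and 879.9 in ST, a log2 difference of -1.47. CDKN1A, an inhibitor of cyclin-dependent kinases, had 146.3 and 129.5 in SM and 263.7 and 326.9 in ST, a log2 difference of -1.09. SPRY1, an inhibitor of receptor tyrosine kinase signalling, had 662.5 and 634.6 in SM and 1423.3 and 1180.6 in ST, a log2 difference of -1, just under 2-fold before rounding. The rule for choosing these 3 genes required arrays that did not overlap, and CDKN1A passed the signal rule through ST alone. The other members of the 15 were DYM (a Golgi protein), TRIM68 (of a ubiquitin ligase family), WBP2, SERINC2, FABP4, MT2A (a metallothionein) and HNRNPH2 (a splicing regulator). Their log2 differences lay between -1.33 and -1.01. All of them but FABP4 and HNRNPH2 passed the signal rule through ST alone, and only DYM passed limma over single arrays.

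Of the 30 genes, 9 of the 15 higher and 9 of the 15 lower ones passed limma over single arrays, and 9 and 7 passed the signal rule in both muscles. Their adjusted p over group values, RCAN1 aside, ran from 0.0833 to 0.872. Of 7 genes with another probe set, all 7 had the same direction there, although ART3 and DYM overlapped between muscles. The 45 probe sets include 16 without a gene symbol. Of the 28 distinct symbols among the others, 13 were higher in SM and 15 lower. A further 4 symbols (SLC38A2, ADGRF5 and TLE1 higher, IFRD1 lower) are among the 28 through a probe set that is not the gene's brightest, and are named here after their values were seen.

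Slow-fibre contractile genes were higher in SM by a small amount each, MYL3 and MYOZ2 aside, and 4 of the 10 used changed sign with quantile normalization. Of 17 listed genes, 11 were on the array and 10 were used. All 10 of 10 were higher, with a median log2 difference of 0.27, and the SM arrays were above the ST arrays for 6 and below them for 0. Over all 5228 probe sets the SM arrays were above for 19.1% and below for 21.9%. MYL3 and MYOZ2 passed limma over single arrays, and the others differed by 0.03 to 0.36. MYL2, the regulatory light chain of slow fibres, had 30612.8 and 35385.9 in SM and 24488.8 and 26952.7 in ST (log2 0.36). MYH7, the slow myosin heavy chain, had 27858.9 and 35779.5 in SM and 27726.6 and 27380.7 in ST (log2 0.20), with the first SM array next to the ST arrays. After quantile normalization over the 24 arrays 6 of 10 were higher, with a median of 0.14, and MYH7, TNNT1, ATP2A2 and MYBPC1 turned to -0.01, -0.02, -0.03 and -0.12. Without SM replicate 2, 8 of 10 were higher (median 0.12), and without SM replicate 1, 10 of 10 (median 0.40).

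Fast-fibre genes differed little between the muscles, and their direction turned with the scaling. Of 10 used, 8 were higher and 2 lower in SM, with a median log2 difference of 0.12, and the arrays overlapped for 7. ACTN3, the alpha-actinin of fast fibres, had 7964.8 and 7559.3 in SM and 8416.9 and 9008.7 in ST (log2 -0.17). ATP2A1, the calcium pump of fast fibres, had 20091.1 and 20733.2 in SM and 22668.9 and 21854.1 in ST (log2 -0.13). They are the 2 members (20%) with both SM arrays below both ST arrays, against 21.9% of all 5228 probe sets. After quantile normalization only 2 of 10 were higher in SM and the median was -0.03. Without SM replicate 2, 4 of 10 were higher (median -0.01), while the median was 0.20 without SM replicate 1 and 0.05 without ST replicate 1. Among the 377 probe sets with mean signal of 5000 or more, to which most fibre genes belong, the median difference was 0.14 and 73.2% were higher in SM, against a median of -0.0076 over all 5228. Its part in the fibre-gene values was not tested.

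Calcium handling was split. Of 17 genes used, 7 were higher and 10 lower in SM, with a median of -0.11 (-0.06 without SM replicate 2, -0.07 without SM replicate 1 and -0.17 without ST replicate 1), although RCAN1 and RRAD are members. S100A1, a calcium-binding protein that acts on the ryanodine receptor, had 549.5 and 439.7 in SM and 252.4 and 347.9 in ST (log2 0.73). PPP3CB, a catalytic subunit of calcineurin, had 187.3 and 179.4 in SM and 256.3 and 284.8 in ST (log2 -0.56), and PPP3CA, the other catalytic subunit on the list, gave -0.31. STIM1, a calcium sensor of the sarcoplasmic reticulum, had 272.2 and 321.4 in SM and 429.0 and 376.3 in ST (log2 -0.44). PPP3CB passed the signal rule through ST alone, so a high ST level was part of its selection. The calcineurin subunits had no limma call, and their relation to RCAN1 was not tested.

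Genes of energy metabolism were more often higher than lower in SM, without a limma call over group values. In 4 equal classes of all 5228 probe sets by mean signal, 44.3% to 50.8% were higher in SM. Among those with mean signal of 5000 or more, 73.2% were higher (median 0.14). The part of this lean of bright probe sets in the energy lists was not tested. Of 72 oxidative phosphorylation genes used, 63 were higher and 9 lower, with a median of 0.20. The SM arrays were above ST for 21 (29.2%), against 19.1% of all 5228 probe sets, and below for 1 (1.39%), against 21.9%. After quantile normalization 57 of 72 were higher (median 0.13). NDUFA3, of complex I, had 5110.0 and 6377.6 in SM and 2756.7 and 4344.2 in ST (log2 0.72), and COX7A1, the muscle form of a cytochrome oxidase subunit, had 11957.8 and 12914.8 in SM and 6991.1 and 10764.7 in ST (log2 0.52). The median moved with the arrays: it was 0.06 without ST replicate 1, where 43 of 72 were higher, 0.37 without ST replicate 2, and 0.11 without SM replicate 2. TCA cycle genes gave 14 higher and 6 lower of 20 (median 0.11), fatty acid use 17 and 7 of 24 (median 0.10), and glycolysis and glycogen 13 and 8 of 21 (median 0.11, and -0.04 after quantile normalization). With 1 array left out, these medians ran from 0.14 to 0.18 for the TCA cycle, 0.05 (without SM replicate 2) to 0.26 (without ST replicate 2) for fatty acid use, and 0.03 (without ST replicate 1) to 0.09 (without ST replicate 2) for glycolysis and glycogen. DLD, a shared subunit of mitochondrial dehydrogenases, was 0.77 higher on the log2 scale. It passed the signal rule through SM alone, so a high SM level was part of its selection. HADHA, of mitochondrial beta-oxidation, passed in both muscles and was 0.56 higher. PPARGC1A, a coactivator that drives mitochondrial genes, had 393.0 and 392.2 in SM and 638.2 and 598.7 in ST (log2 -0.65), opposite in sign to the medians of these lists.

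Ribosomal protein genes leaned the same way, since 56 of 60 were higher in SM, with a median of 0.27. The median was 0.08 without ST replicate 1, 0.15 without SM replicate 2 and 0.43 without ST replicate 2. After quantile normalization 46 of 60 were higher (median 0.11). Among all probe sets with mean signal of 5000 or more, 73.2% were higher in SM (median 0.14). The part of this lean in the ribosomal values was not tested.

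Positional transcription factors were few, since 5 of 20 on the array passed the signal rule. IRX3 stood out as above. HOXA9 had 1216.3 and 1048.5 in SM and 586.3 and 757.7 in ST (log2 0.76). HOXA4, which passed the signal rule through ST alone, had 148.1 and 178.3 in SM and 203.2 and 309.2 in ST (log2 -0.63). HOXA10 and MEIS2 overlapped between the muscles.

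Immediate early and stress genes were more often higher in SM, with the SM arrays above ST for 9 of 20 (45%), against 19.1% of all 5228 probe sets. The SM arrays were below ST for 3 (15%), against 21.9%. Of the 20, 14 were higher, with a median of 0.22. That median was 0.34 without SM replicate 1 and 0.15 without ST replicate 1, and all 4 left-out medians were positive. FOS had 1696.7 and 1683.5 in SM and 927.8 and 969.1 in ST (log2 0.83), and DUSP1, a phosphatase that switches off MAP kinases, had 1858.5 and 1598.1 in SM and 889.1 and 1131.2 in ST (log2 0.78). FOS and DUSP1 passed limma over single arrays, which covers array error only, and did not pass over group values. Over the LD groups at T12, mean FOS signal ran from 1719 in NN to 7907 in CC. Mean DUSP1 signal ran from 1563 in NC to 3504 in CC. NR1D1, a clock repressor, and MT2A lay the other way, at -0.67 and -1.02. Several small heat shock proteins, chaperones that bind unfolding proteins, lay lower in SM. CRYAB had 9722.3 and 9987.2 in SM and 13941.3 and 16274.8 in ST (log2 -0.61). HSPB6 gave -0.70 and HSPB1 -0.51, while of all 17 heat shock genes 5 were higher and 12 lower (median -0.18). Over the LD groups at T12, mean signal ran from 8243 in CC to 15120 in NC for CRYAB. For HSPB1 it ran from 20230 in CC to 31280 in NC, and for HSPB6 only from 1032 in CN to 1228 in NC.

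Protein turnover and growth signals showed small shifts. FBXO32, a muscle ubiquitin ligase of atrophy, had 1666.9 and 1987.8 in SM and 2814.5 and 3325.4 in ST (log2 -0.75). Of 30 proteasome genes 23 were lower in SM (median -0.11), with PSMD1 at -0.55, but the direction turned with 1 array left out. Without SM replicate 1, 16 of 31 were higher (median 0.01), without ST replicate 2, 19 of 30 were higher (median 0.03), and without SM replicate 2 or ST replicate 1 the medians were -0.18 and -0.27. MSTN, myostatin, which restrains muscle growth, had 286.7 and 282.4 in SM and 464.0 and 391.5 in ST (log2 -0.58). MYOG and ID1 were 0.43 and 0.59 higher.

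At the callipyge locus, DLK1 had 873.5 and 1022.4 in SM and 1019.3 and 1149.4 in ST (log2 -0.20), with overlapping arrays. MEG3, the maternally expressed RNA next to it, had 282.5 and 296.1 in SM and 414.3 and 431.3 in ST (log2 -0.55). IGF2, an imprinted growth factor, had 1624.9 and 2015.5 in SM and 2161.2 and 2906.2 in ST (log2 -0.47). Of 11 imprinted genes used, 5 were higher and 6 lower (median -0.02).

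**Figure D3:**
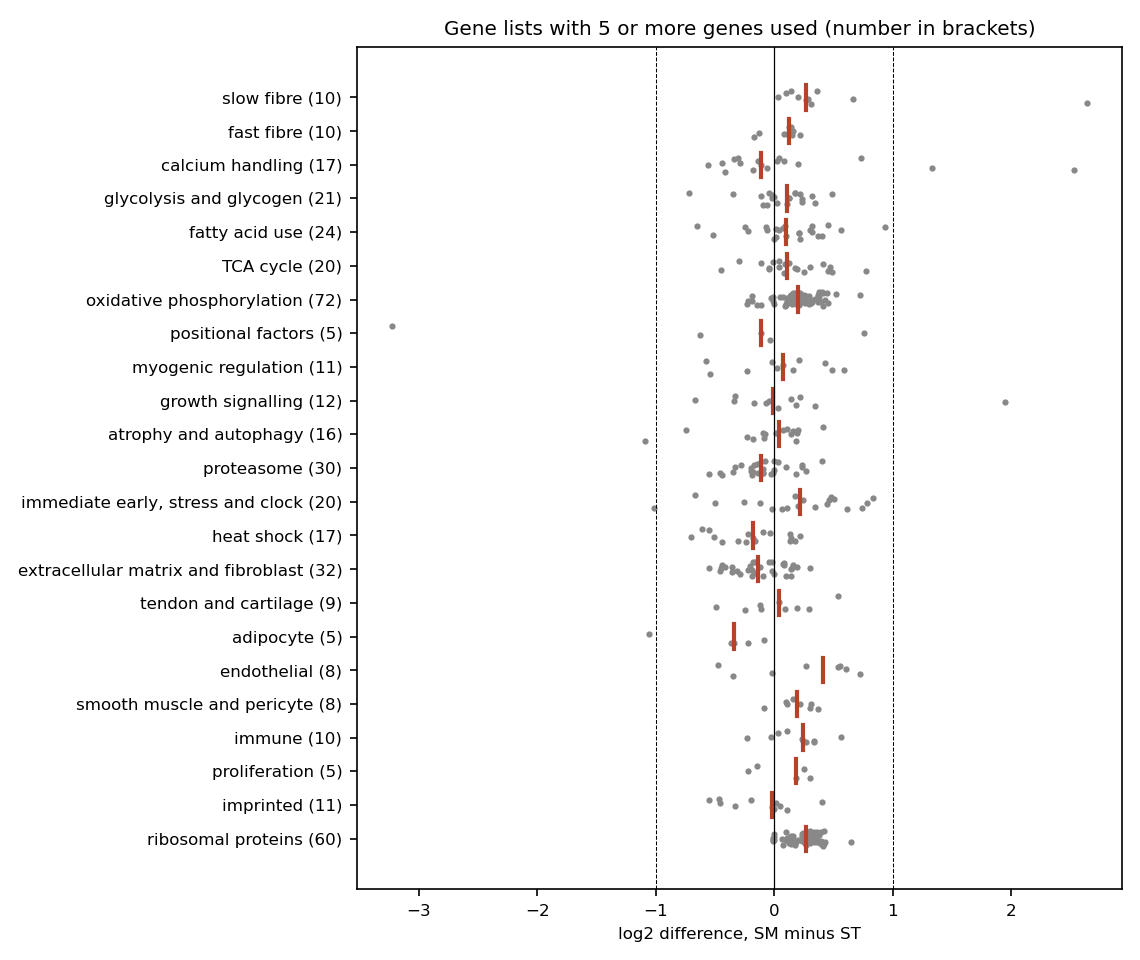
Log2 difference SM minus ST (horizontal axis) of each member used of the lists with 5 or more genes used, as grey points, with the list's median as a red bar and dashed lines at a 2-fold difference. The slow fibre (0.27), ribosomal proteins (0.27) and endothelial genes (0.41) have medians to the right, and after quantile normalization the fast-fibre (-0.03) and glycolysis (-0.04) medians change side. The fast-fibre median is -0.01 without SM replicate 2. After quantile normalization the slow-fibre and ribosomal medians are 0.14 and 0.11.

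The remaining lists had medians between -0.34 and 0.44, and several had few members used. Extracellular matrix and fibroblast genes gave 10 higher and 22 lower in SM of 32 (median -0.14), with MGP, an inhibitor of calcification, at -0.55. Growth signalling was split 6 and 6 of 12 (median -0.01), myogenic regulation 7 and 4 of 11 (0.07), atrophy and autophagy 9 and 7 of 16 (0.04), and tendon and cartilage 5 and 4 of 9 (0.04). Immune genes gave 8 higher and 2 lower of 10 (0.24, and 0.12 with 5 of 10 higher without SM replicate 1), smooth muscle and pericyte genes 7 and 1 of 8 (0.19), and proliferation genes 3 and 2 of 5 (0.18). The 5 adipocyte genes used were all lower in SM (median -0.34). For 2 of them (40%) the SM arrays were below the ST arrays, against 21.9% of all 5228 probe sets. Without SM replicate 1, 2 of 5 were higher (median -0.11), without ST replicate 2, 1 of 6 (median -0.23), and at a signal of 100 or more, 3 of 10 (median -0.16). The medians also moved with 1 array left out for extracellular matrix (-0.16 to -0.04), growth signalling (-0.05 to 0.18), myogenic regulation (0.02 to 0.11), atrophy and autophagy (-0.07 to 0.05), tendon and cartilage (-0.08 to 0.16), smooth muscle and pericyte (0.11 to 0.24) and proliferation (0.01 to 0.30). Embryonic and neonatal muscle had 3 genes used (median -0.06), and red blood cell, nerve and neuromuscular junction lists 1 each. No gene of the lists but RCAN1 passed limma over group values.

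Markers of some other cell types differed between the muscles, while others overlapped. Summed over 5 endothelial markers, all 5 of them higher in SM, the signal was 2947.6 and 2841.5 on the SM arrays and 2039.1 and 1952.9 on the ST arrays. Of these markers, KDR and VWF overlapped between the muscles. Of the 8 endothelial list genes used, 5 (62.5%) were higher in SM, with arrays not overlapping, and 3 were lower, down to -0.48. Over all 5228 probe sets the SM arrays were above for 19.1%. The list's median was 0.41, and 0.21 without ST replicate 2. PECAM1, an adhesion protein of vessel walls, had 1527.5 and 1584.6 in SM and 991.5 and 1058.0 in ST. Over 4 adipocyte markers, of which 3 were lower in SM, the SM arrays summed to 495.0 and 501.1 and the ST arrays to 786.7 and 846.3. FABP4, the fatty acid-binding protein of adipocytes and the largest term of that sum, had 223.5 and 284.1 in SM and 476.7 and 576.8 in ST. The endothelial marker KDR and the adipocyte marker LEP lay below the lowest array median on all 4 arrays. In bulk tissue, fewer cells of a type and less RNA per cell cannot be told apart. The part of vessel and fat cells in the values of CD36 and of the lists was not tested. The 4 smooth muscle markers, all with a higher mean in SM, summed to 7241.6 and 7073.6 in SM, against 5942.8 and 6446.7 in ST. ACTA2 was the largest term of that sum, and MYH11 overlapped between the muscles. Sums of fibroblast, tendon, immune, and Schwann and nerve markers overlapped between the muscles.

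Setting SM and ST against LD and SS shows which of the pair stood apart. Of the 19 probe sets at least 2-fold higher in SM, ST was below all 6 arrays of the other muscles in 10 and SM above all 6 in 6, with 3 counted in both. Of the 26 lower in SM, ST was above all others in 17 and SM below in 10, with 5 in both, and 15 of the 26 had entered through ST alone. Over all 5228 probe sets these shares were 4.48% for ST below, 3.62% for SM above, 6.45% for ST above and 4.17% for SM below. LD was nearer to SM in 35 of the 45 (77.8%), against 55.6% of all probe sets used, and SS was nearer to SM in 21 (46.7%, against 49.6%). These shares use the same SM and ST arrays that chose the 45, so they describe the muscles and were not tested.

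**Figure D4:**
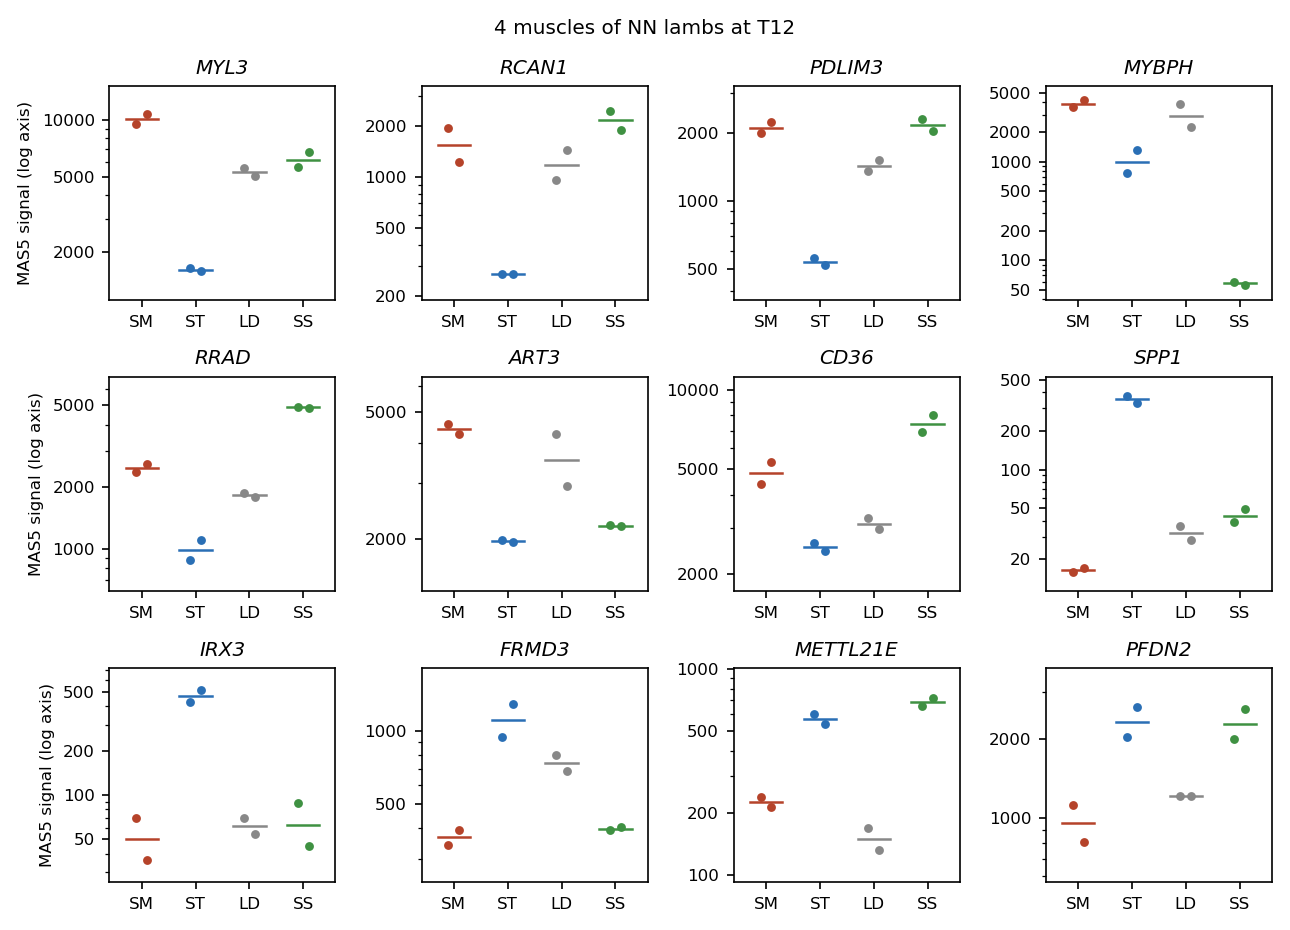
Signal (vertical log axis, scaled per panel) of 12 genes in SM, ST, LD and SS of NN lambs at T12, with 2 arrays per muscle as points and their mean as a line. Among these NN samples at T12, SPP1 and IRX3 are high in ST alone, RCAN1 and PDLIM3 are low in ST alone, and MYBPH is lowest in SS. Other LD groups of the series, not shown, reached higher SPP1 and IRX3 signals than the LD arrays here. The PDLIM3 panel shows its brighter probe set, and in the dimmer one SS is lowest.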

How the data were processed

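RNA of SM and ST muscle was measured on bovine Affymetrix arrays, 2 technical arrays each. Each deposited value is a probe set's linear intensity, which the authors computed with MAS5, as the submitters' processing notes state without a version. Every array had a 2% trimmed mean signal of 200.08 to 200.093. Detection calls were not used here. Signals under 1 were set to 1 (5477 of 579072 values at or below it over all arrays) before log2 was taken, and the technical arrays were averaged. The arrays of a muscle shared at most 0.336% of values, so neither pair is a scan deposited again.

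Differences are log2 SM minus ST. Of 24128 probe sets, 112 controls were left out, and 15654 above the median signal in at least 1 group were tested two-sided in R 4.3.3 with limma 3.58.1, using lmFit and a trended eBayes, and p was adjusted by Benjamini-Hochberg. The 12 group values formed 8 cells with 4 residual degrees of freedom (prior 6.89), all from LD, where CC, NC and NN of an age share a cell. P-values measure the spread between these group values. The fits were tested on simulated data. Few arrays, and dim signals, limit the precision.

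The 2016 platform annotation gave 1 symbol to 13292 probe sets, several to 86 and none to 10750, and probe sets with several were left unnamed. Of the 3283 symbols used, 3130 are in RefSeq's sheep gene table (ARS-UI_Ramb_v3.0). Without a genome here, coordinates and sequences are not printed.

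The text names, by rule, the 15 largest differences each way among genes whose arrays did not overlap (brightest probe set per gene), any limma call, all slow- and fast-fibre genes used, up to 4 members of each other list, and DLK1 and MEG3. The 27 lists hold 896 genes, 677 on the array and 436 used. They cover fibre types, embryonic and neonatal muscle, calcium handling, energy metabolism, positional factors, myogenic, growth and atrophy genes, proteasome, immediate early and heat shock genes, matrix, tendon, other cell types, neuromuscular junction, proliferation, imprinted and ribosomal genes. The comparison and the lists were chosen with earlier results of these data known. The alternatives were quantile normalization, 16 added to each signal, other signal limits, each array left out, single arrays as values, a replicate block, all probe sets tested, no trend, overlapping arrays and gene means over probe sets.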

Additional observations from a re-analysis of the deposited data

How the results depend on the processing

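Over 15 alternatives, 20 of the 130 genes named by the rule changed sign somewhere, and the cause was not tested. The 1 limma call became 0 without the intensity trend (RCAN1 adjusted p 0.201, with 1096 probe sets at an unadjusted p under 0.05), 2 to 8 with 1 array left out, and 77 with single arrays as values. With the replicate number as a block, 89 passed. SM and ST arrays of the same number deviated together with r = 0.346, and those with the same number differed by a median absolute log2 of 0.233 and 0.235, against 0.275 and 0.288 for different numbers. Over the series 27 of 66 such pairs of groups correlated below 0 and 30 above 0.1 (range -0.358 to 0.479). With 2 arrays in a group, a swap of the numbers turns the sign of r, so these counts cannot decide on a pairing. No label says what a number marks. For lack of a label the number was not taken as a pairing, and whether same-numbered SM and ST arrays shared a run was not tested. RCAN1's adjusted p ran from 3.18e-05 to 0.201 over the alternatives. The 45 probe sets with a 2-fold difference became 145 at a signal of 100 or more, 26 at 400 or more (fewer or more probe sets enter) and 99 to 134 with 1 array left out. Those higher in SM numbered 91 at 100 or more and 47 to 69 with 1 array left out, against 19. Those lower numbered 54, 13 at 400 or more, and 42 to 67, against 26. List genes with a 2-fold difference were 14 at 100 or more and 5 at 400 or more, against 8. Quantile normalization turned the sign of MYH7 (-0.01), TNNT1 (-0.02), ATP2A2 (-0.03), MYBPC1 (-0.12), MYH1 (-0.03), MYL1 (-0.01), TNNT3 (-0.10), TNNI2 (-0.02), TNNC2 (-0.04) and MYOZ1 (-0.02). Some differences spanned 0 when 1 array was left out. Without SM replicate 2 the lowest values were reached by TNNT1 (range -0.03 to 0.31), MYH1 (-0.02 to 0.29), TNNT3 (-0.01 to 0.16), TNNC2 (-0.02 to 0.24), MYOZ3 (-0.14 to 0.58), S100B (-0.01 to 0.34) and STMN1 (-0.10 to 0.45). Without SM replicate 1, TPM1 (-0.13 to 0.38), JCHAIN (-0.11 to 0.65) and CHRNE (-0.11 to 0.17, and -0.07 without ST replicate 2) reached their lowest values, and ACADS (-1.12 to 0.09) and CFD (-0.48 to 0.04) their highest. MYH8 (-0.17 to 0.06) and MEIS2 (-0.27 to 0.06) were highest without ST replicate 2. Signals near the array medians, as for SPP1 and IRX3 in SM, limit how well a fold can be sized.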

Other observations

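Several genes below the signal limit of 200 are given here as values, chosen after they were seen. Their signals lie near or below the array medians (59.0 and 56.55 in SM, 54.2 and 48.9 in ST) in at least 1 muscle, so no fold is given. Among positional factors, HOXC6 had 108.0 and 190.2 in SM and 10.1 and 51.4 in ST. HOXD10 had 37.6 and 61.9 in SM and 134.1 and 143.9 in ST. PITX1, a hind-limb factor, had 59.1 and 37.7 in SM and 76.8 and 106.2 in ST. MYL6B, an essential light chain on the slow-fibre list, had 135.8 and 144.4 in SM and 59.7 and 59.9 in ST. Of 10426 probe sets tested but below the limit, 1235 differed at least 2-fold with arrays not overlapping.

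A further 51 probe sets passed limma over single arrays with a difference under 2-fold, 18 higher and 33 lower in SM. Among the higher ones, named after their values were seen, PTPRB, a phosphatase of vessel walls, had 1207.5 and 1424.4 in SM and 794.5 and 652.6 in ST (log2 0.86). NRP1, a co-receptor for vascular growth factors, had 2655.9 and 2590.4 in SM and 1798.2 and 1594.5 in ST (log2 0.63). COQ8A, needed for coenzyme Q synthesis, had 4211.4 and 3876.3 in SM and 2640.7 and 2532.7 in ST (log2 0.64). Among the lower ones, EGLN1, an oxygen-sensing hydroxylase, had 1093.2 and 937.4 in SM and 1842.1 and 1825.0 in ST (log2 -0.86). A TPM2 probe set, for beta-tropomyosin, had 21597.5 and 22939.3 in SM and 31511.8 and 34438.0 in ST (log2 -0.57). APOBEC2, a muscle gene of the deaminase family, had 2224.1 and 2076.9 in SM and 3063.1 and 4140.8 in ST (log2 -0.73).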
